A study of Mus musculus with 4 samples.

Results

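10 transcription factors of the trophoblast, the lineage that forms the fetal part of the placenta, were followed in RNA sequencing libraries of mouse liver. The 10 genes were chosen by symbol. 3 act in trophoblast stem cells (Cdx2, Eomes and Elf5) and 7 act in trophoblast differentiation (Hand1, Ascl2, Gata2, Gata3, Tfap2c, Rhox6 and Rhox9). By RefSeq, Elf5, Gata3 and Tfap2c lie on chromosome 2, Cdx2 on 5, Gata2 on 6, Ascl2 on 7, Eomes on 9, Hand1 on 11, and Rhox6 and Rhox9 on X. All 10 were among the 27179 genes in the files, and 9 were among the 15470 genes that had enough counts to be tested. The study compared fasted with non-fasted mice, with 2 libraries of total RNA in each group. Fasted mice had water but no food overnight, and non-fasted mice had free access to both. All 4 libraries were labelled as male liver of C57BL/6 wild type mice, and no age was given. The groups follow the sample titles, since the separate treatment field reads fasted for every library. The labels do not tie libraries to single animals, so p-values here measure spread from library to library, which could be technical.

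In the mouse embryo, Cdx2 and Eomes act in the outer layer of the blastocyst, and together with Elf5 they keep trophoblast stem cells dividing. As these cells differentiate, Hand1 drives the formation of trophoblast giant cells, Ascl2 is needed for the spongiotrophoblast, and the GATA and AP-2 factors switch on placental hormone and structural genes. Adult hepatocytes are not known for any of these programmes, although Gata2 and Gata3 also act in endothelial and blood cells and Eomes in natural killer cells.

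The libraries labelled non-fasted held RNA that the label liver does not describe. Where the text says fasted or non-fasted livers, it means only the libraries so labelled. 7 markers of spongiotrophoblast and glycogen cells summed to 8.12 and 7.47 CPM (counts scaled to a library total of 1e+06) in the fasted libraries, against 37150 and 37520 CPM in non-fasted ones. 7 giant cell markers summed to 0.0739 and 0.148 CPM in fasted and to 10680 and 10780 CPM in non-fasted libraries. 12 hepatocyte markers summed to 116500 and 116800 CPM in fasted and to 47200 and 46940 CPM in non-fasted libraries, so hepatocyte RNA was present in all 4. Both non-fasted libraries carried the trophoblast markers, so no comparison could be made without them. Fasting and this tissue content cannot be told apart. Total counts were 13541405 and 13528015 in the fasted libraries, against 36975921 and 36943535 in the non-fasted libraries. In bulk RNA, fewer cells of a type and less RNA per cell cannot be told apart either.

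9 of the 10 factors were lower in the fasted libraries by edgeR's quasi-likelihood test at an adjusted p under 0.05, and the remaining factor, Elf5, was too low to be tested. Over all 15470 genes tested, 45.0% were called lower and 37.2% higher. These shares were 62.7% lower and 23.0% higher with libraries scaled to total counts, and 90.9% lower and 4.20% higher with libraries scaled to their hepatocyte markers, so a call of lower under hepatocyte marker scaling is the usual one. 6 of the 9 were at 0 in both fasted libraries. 8 of the 9, all except Gata2, passed the filter on low counts only through the non-fasted libraries. The filter thus favoured genes that were lower in fasted livers, and the number of these calls is no result in itself. Summed over the 10 genes, the factors gave 1.48 CPM in each fasted library, against 848 and 850 CPM in the non-fasted libraries. The plot of raw counts by library shows how far apart the groups lay for each gene. Whether groups overlapped is given as a description only, since the share of all genes with no overlap was not counted.

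**Figure D1:**
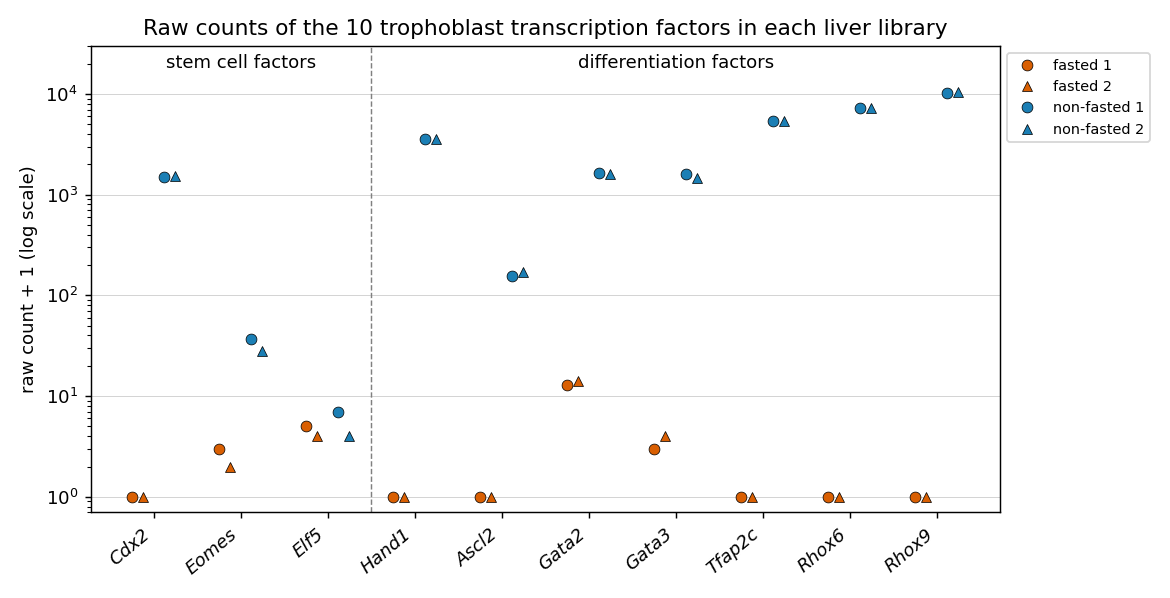
Raw counts plus 1 (log axis) of the 10 trophoblast transcription factors in the 2 fasted libraries (orange, left) and the 2 non-fasted libraries (blue, right), one point per library. 6 genes sit at a count of 0 in both fasted libraries, while Elf5 is the only factor whose groups overlap, with 4 and 3 counts in fasted and 6 and 3 in non-fasted libraries.

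Cdx2, the homeobox factor that sets up the outer trophoblast layer of the embryo, was the most abundant of the 3 stem cell factors. It had 0 and 0 counts in the fasted libraries, against 1498 and 1517 in both non-fasted ones, and the groups did not overlap. Taking the floor of 3 counts over the fasted group, Cdx2 was at least 259-fold lower in fasted livers (adjusted p = 1.94e-09). This bound is -8.02 on the log2 scale and -9.83 under hepatocyte marker scaling, which moves the bounds of the other 5 factors at 0 by the same amount. The floor covers counting error only, and the same holds for the counting intervals given for other genes. Cdx2 also marks intestinal epithelium, whose 5 markers summed to 93.0 and 94.8 CPM in fasted and 21.5 and 21.7 CPM in non-fasted libraries. 1 gene, the fatty acid binding protein Fabp2, carried this sum, and without it the sums were 5.69 and 5.32 CPM in fasted and 4.62 and 4.49 CPM in non-fasted libraries. Most of what was left was Lgr5, at 5.54 and 5.25 CPM in fasted and 3.2 and 2.8 CPM in non-fasted libraries. Fabp2 and Lgr5 were higher and Vil1 was lower in fasted libraries, beside 37.2% higher and 45.0% lower over all genes. Vil1 passed the filter only through the non-fasted libraries, which favours a call of lower. Cdx1 (0 and 0 counts against 8 and 9) and Olfm4 (0 and 0 against 2 and 4) were too low to be tested. Under hepatocyte marker scaling Lgr5 was called lower, as were 90.9% of all genes. The part of intestinal cells in the result for Cdx2 was not tested.

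Eomes, a T-box factor of trophoblast stem cells and of cytotoxic lymphocytes, was much scarcer. It had 2 and 1 counts in the fasted libraries, against 36 and 27 in non-fasted ones, and the groups did not overlap. Its log2 fold change was -2.40 (SE 0.559, adjusted p = 0.00342), and -4.15 under hepatocyte marker scaling. As a ratio of normalized counts this was 0.184, with a counting interval of 0.0371 to 0.564 (exact, 95%), which rests on only 3 counts in the fasted group. Without fasted replicate 1 the adjusted p was 0.0556, without fasted replicate 2 it was 0.0752, and without non-fasted replicate 1 Eomes did not pass the filter. The 6 natural killer cell markers summed to 0.960 and 1.18 CPM in fasted and to 6.52 and 7.12 CPM in non-fasted libraries. This sum followed 1 gene, the pore-forming protein Prf1, with 1 and 3 counts in fasted and 229 and 238 in non-fasted libraries. Without Prf1 the direction turned, with sums of 0.886 and 0.961 CPM in fasted and 0.325 and 0.677 CPM in non-fasted libraries. Those sums rest on few reads, since Ncr1, Gzma, Klrb1c, Klra8 and Tbx21 had at most 11 counts in any library. The part of natural killer cells in the result for Eomes was not tested.

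Elf5, an ETS factor that closes a loop with Cdx2 and Eomes in mouse trophoblast stem cells, was near the limit of detection in every library. It had 4 and 3 counts in the fasted libraries, against 6 and 3 in non-fasted ones, and the groups overlapped. The ratio of its normalized counts was 3.01, with a counting interval of 0.954 to 9.09, so no difference was detectable at this depth. With no filter on low counts the fitted log2 fold change was 1.52 (adjusted p = 0.0866). When libraries were scaled to their hepatocyte markers instead, the ratio was 0.857, with an interval of 0.271 to 2.59.

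Hand1, the basic helix-loop-helix factor that trophoblast giant cells need, had 0 and 0 counts in the fasted libraries, against 3584 and 3552 in the non-fasted libraries. It was at least 614-fold lower in fasted livers (adjusted p = 2.08e-10). Ascl2, an imprinted factor of the same class that maintains spongiotrophoblast precursors, had 0 and 0 counts in the fasted libraries, against 154 and 171 in the non-fasted libraries. It was at least 28.0-fold lower in fasted livers (adjusted p = 1.05e-05). Neither gene's groups overlapped, and Ascl2 was the lowest of the 7 differentiation factors in non-fasted livers by raw count and per length.

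Gata2, a zinc finger factor of trophoblast, endothelial and blood progenitor cells, was the factor with the most counts in fasted livers. It had 12 and 13 counts in the fasted libraries, against 1636 and 1614 in the non-fasted libraries, a log2 fold change of -5.06 (SE 0.107, adjusted p = 2.4e-10), or 33.4-fold lower in fasted livers. Under hepatocyte marker scaling the log2 fold change was -6.87. Of 7 endothelial markers 6 were lower in fasted livers and 1, Tek, was higher, beside 45.0% lower and 37.2% higher over all genes. Tek was lower under hepatocyte marker scaling, as were 90.9% of all genes. The endothelial markers had a median log2 fold change of -1.96. They summed to 124 and 124 CPM in fasted and to 694 and 691 CPM in non-fasted libraries. Mast cells also use Gata2, but their markers were mixed. Kit was lower in fasted livers (-4.17) and Hdc higher (4.45), Cpa3 had 0 and 0 counts in fasted and 8 and 5 in non-fasted libraries, Fcer1a had 2 and 1 counts in fasted and 0 and 0 in non-fasted libraries, and Ms4a2 was at 0 in all 4 libraries. Summed, the 5 mast cell markers gave 38.3 and 36.6 CPM in fasted and 136 and 140 CPM in non-fasted libraries. Nearly all of the non-fasted sum was Kit (134.1 and 137.5 CPM), and most of the fasted sum was Hdc (32.9 and 31.1 CPM). The part of endothelial and mast cells in the result for Gata2 was not tested.

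Gata3, the related factor of trophoblast and of T cells, had 2 and 3 counts in the fasted libraries, against 1589 and 1473 in the non-fasted libraries. Its log2 fold change was -7.28 (SE 0.202, adjusted p = 1.55e-09), and -9.05 under hepatocyte marker scaling. The groups were far apart, although Gata3 was also the factor whose non-fasted libraries differed most from each other relative to counting noise, by 2.07 counting SDs. The 6 T cell markers summed to 3.47 and 3.40 CPM in fasted and to 3.06 and 3.60 CPM in non-fasted libraries, so the sums overlapped. Of the 4 that were tested, Cd3g was higher in fasted livers and the other 3 did not pass the threshold, while under hepatocyte marker scaling Cd3g was not called and the other 3 were lower. Cd3g passed the filter only through the fasted libraries, which favours a call of higher. The part of T cells in the result for Gata3 was not tested.

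Tfap2c, the AP-2 gamma factor that keeps trophoblast genes active in the early embryo, had 0 and 0 counts in the fasted libraries, against 5349 and 5385 in the non-fasted libraries. It was at least 924-fold lower in fasted livers (adjusted p = 1.04e-10). The non-fasted values were close to each other and far from 0.

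Rhox6 and Rhox9, homeobox genes of an X-linked reproductive cluster that are active in mouse placenta and germ cells, gave the most counts of the 10. Rhox6 had 0 and 0 counts in the fasted libraries, against 7257 and 7261 in non-fasted ones, and was at least 1249-fold lower in fasted livers (adjusted p = 6.88e-11). Rhox9 had 0 and 0 counts in the fasted libraries, against 10227 and 10408 in the non-fasted libraries, and was at least 1776-fold lower in fasted livers (adjusted p = 7.57e-11). For both genes the groups did not overlap. Together they took 55.8% (Wilson interval 55.2% to 56.3%) and 56.2% (55.7% to 56.8%) of all reads counted for the 10 factors in non-fasted livers.

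The split of counts between Rhox6 and Rhox9 is uncertain, because the genes are close copies. Their longest coding sequences have 681 bases each and match at 617 positions (90.6%), and 159 of the 961 stretches of 50 bases in Rhox6 transcripts (16.5%) also occur in Rhox9, but in no other gene. How reads that fit both genes were counted is not given in the sources used here. The longest run that both coding sequences share is printed here to show what a short read cannot tell apart. It covers positions 167 to 327 of each coding sequence, counted from the first base of the start codon (161 bases, in capitals), and is shown within positions 127 to 367 (GENCODE transcripts, X chromosome).
Rhox6: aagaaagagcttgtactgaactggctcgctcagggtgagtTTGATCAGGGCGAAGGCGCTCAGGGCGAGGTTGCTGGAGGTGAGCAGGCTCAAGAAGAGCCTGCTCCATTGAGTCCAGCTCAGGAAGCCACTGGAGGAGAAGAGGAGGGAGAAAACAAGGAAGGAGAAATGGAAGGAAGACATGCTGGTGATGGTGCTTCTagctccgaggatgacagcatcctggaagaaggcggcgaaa
Rhox9: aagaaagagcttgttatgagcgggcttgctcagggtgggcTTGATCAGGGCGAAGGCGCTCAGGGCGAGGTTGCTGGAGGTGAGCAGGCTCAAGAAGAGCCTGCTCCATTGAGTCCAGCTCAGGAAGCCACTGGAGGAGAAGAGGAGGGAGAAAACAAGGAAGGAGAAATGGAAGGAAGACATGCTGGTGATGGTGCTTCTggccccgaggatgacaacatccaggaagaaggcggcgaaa

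Per length of transcript, the 7 differentiation factors summed to far more than the 3 stem cell factors in the non-fasted libraries. Levels were taken as CPM per kilobase of exon, with exon lengths from the GENCODE annotation of GRCm38, an earlier build than the GRCm39 named for the counts, so they are approximate. The 3 stem cell factors summed to 18.2 and 18.4 CPM per kilobase in the non-fasted libraries and the 7 differentiation factors to 426 and 428, so the stem cell factors made up 4.11% and 4.12% of the total. Rhox6 (194) and Rhox9 (112) carried most of the differentiation sum, and Cdx2 stood above Gata3, Gata2 and Ascl2. Nearly all of the stem cell share was Cdx2, at 18.0 ± 0.17 CPM per kilobase (SD, n = 2), since Eomes was at 0.231 ± 0.046 and Elf5 at 0.0457 ± 0.022. In the fasted libraries the 2 sums were 0.151 and 0.103 for the stem cell factors and 0.287 and 0.330 for the differentiation factors, and these rest on 20 counts in each library.

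The order of the factors in non-fasted livers, by CPM per kilobase, began with Rhox6 at 194 ± 0.20 and Rhox9 at 112 ± 1.5 (SD, n = 2). This order turned round with the transcript used for the length, since Rhox9 has annotated coding transcripts of 882 and 2422 bases, which give 316 and 115 CPM per kilobase. Hand1 (48.3 ± 0.28) and Tfap2c (44.3 ± 0.24) came next, and the ranges set by their annotated transcripts overlapped, at 50.7 to 53.5 for Hand1 and 48.6 to 52.3 for Tfap2c. Cdx2 (18.0) followed and stood above Gata3 at 12.9 ± 0.68 and Gata2 at 11.9 ± 0.11. Gata3 and Gata2 could not be ordered, since the transcripts of Gata2 gave 12.3 to 14.0. Ascl2 was lower at 2.71 ± 0.20, above Eomes and Elf5.

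**Figure D2:**
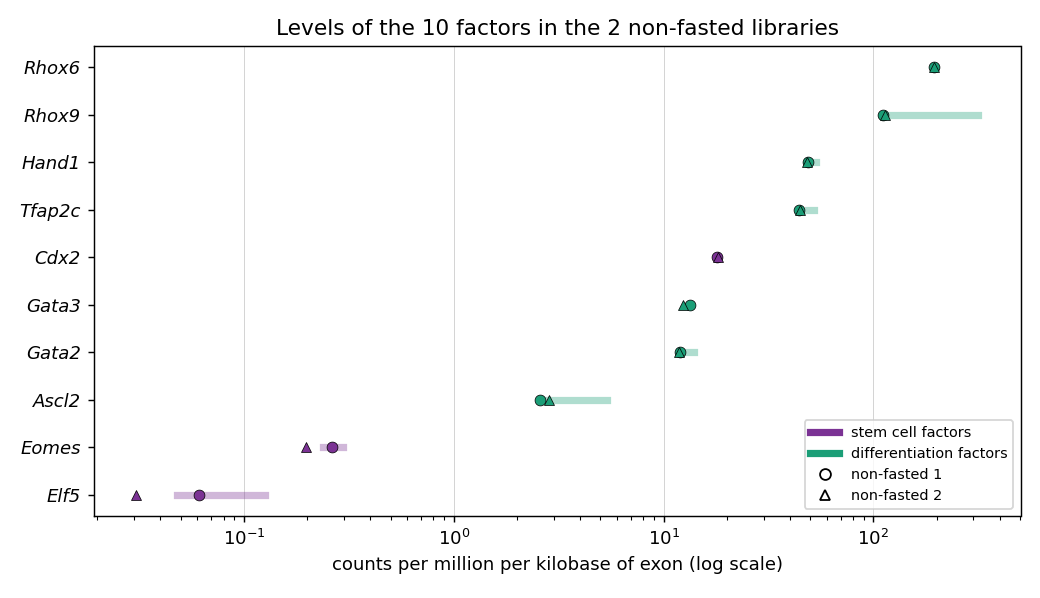
Levels of the 10 factors in the 2 non-fasted libraries, in CPM per kilobase of exon (log axis), for stem cell factors (purple) and differentiation factors (green). Circles and triangles are the 2 libraries, with length taken as all annotated exons, and pale bars span the levels given by the longest and the shortest coding transcript. Cdx2 is the only stem cell factor among the differentiation factors, and the bar of Rhox9 crosses the level of Rhox6.

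The non-fasted libraries gave nearly the same values for most factors. The ratio of non-fasted replicate 1 to replicate 2 in CPM lay between 0.900 (Ascl2) and 1.08 (Gata3) for 8 factors, and was 1.33 for Eomes and 2.00 for Elf5, whose counts were lowest. The counting error of a single library was 0.985% for Rhox9 and 47.1% for Elf5.

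Windows around the start of transcription were available from RefSeq (GRCm38.p6, 250 bases before to 50 after the start) for 6 of the 10 factors, in 8 windows. They were searched on both strands for 6 short motifs, namely AGATAA (bound by GATA factors), CANNTG (the E-box of basic helix-loop-helix factors), GCCNNNGGC (AP-2 factors), GGTGTGA (T-box factors), TTTATT (CDX factors) and CGGAAG (ETS factors), and overlapping matches were all marked. 4 of the 8 windows are printed as examples. They are the windows of Cdx2 (chr5:147307200-147307499, minus strand), Gata3 (chr2:9878551-9878850, minus strand) and the 2 windows of Elf5 (chr2:103411848-103412147 and chr2:103423818-103424117, plus strand), with motif matches in capitals.
Cdx2: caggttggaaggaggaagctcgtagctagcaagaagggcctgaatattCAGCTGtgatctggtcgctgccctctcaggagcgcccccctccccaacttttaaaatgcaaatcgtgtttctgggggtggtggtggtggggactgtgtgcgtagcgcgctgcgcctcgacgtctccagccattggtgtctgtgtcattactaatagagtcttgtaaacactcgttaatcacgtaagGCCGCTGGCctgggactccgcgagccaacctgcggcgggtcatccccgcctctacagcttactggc
Gata3: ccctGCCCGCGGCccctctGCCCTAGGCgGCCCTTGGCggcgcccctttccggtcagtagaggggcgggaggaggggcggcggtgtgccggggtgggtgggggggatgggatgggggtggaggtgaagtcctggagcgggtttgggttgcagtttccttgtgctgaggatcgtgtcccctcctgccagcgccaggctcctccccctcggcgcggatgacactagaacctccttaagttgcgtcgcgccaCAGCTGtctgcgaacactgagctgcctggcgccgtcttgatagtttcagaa
Elf5 first: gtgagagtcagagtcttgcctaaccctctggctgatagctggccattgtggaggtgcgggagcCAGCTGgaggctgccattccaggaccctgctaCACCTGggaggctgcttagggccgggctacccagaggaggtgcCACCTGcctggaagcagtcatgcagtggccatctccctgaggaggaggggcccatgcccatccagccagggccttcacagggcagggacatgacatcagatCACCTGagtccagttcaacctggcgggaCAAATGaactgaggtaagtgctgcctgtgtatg
Elf5 second: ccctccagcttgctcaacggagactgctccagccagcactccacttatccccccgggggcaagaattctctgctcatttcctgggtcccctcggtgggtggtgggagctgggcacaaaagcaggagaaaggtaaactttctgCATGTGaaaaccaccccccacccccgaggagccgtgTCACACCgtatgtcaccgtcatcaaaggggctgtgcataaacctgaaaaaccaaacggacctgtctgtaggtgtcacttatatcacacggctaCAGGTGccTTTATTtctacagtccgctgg

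The window of Cdx2 held 1 AP-2 match and 1 E-box, and that of Gata3 held 3 AP-2 matches side by side at its 5′ end and 1 E-box. The AP-2 motif occurred in 16.6% of the 32851 windows of this length and the E-box in 72.3%. The first window of Elf5, a gene known for DNA methylation of its promoter outside the mouse trophoblast, had 3 CG dinucleotides and 5 E-boxes. Its second window had 10 CGs, 2 E-boxes, 1 T-box match and 1 CDX match. The first window of Gata2 also held 1 T-box and 1 CDX match and the window of Eomes 1 CDX match, and these motifs occurred in 3.98% and 19.6% of all windows. The median over all windows was 7 CGs, and the other windows had 18 (Cdx2), 22 (Gata3), 23 (Ascl2), 10 (Eomes), and 32 and 29 (Gata2). None of the 8 windows matched the GATA motif (11.2% of all windows) or the ETS motif (16.9%). A match describes letters and does not show that a factor was bound.

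Of 10 other regulators of the stem cell state 8 were tested, and 7 were lower and 1 higher in fasted livers, where 45.0% of all genes were lower and 37.2% higher. 3 of the 7 passed the filter only through the non-fasted libraries, which favours a call of lower, so their number is no result in itself. The median log2 fold change was -1.93, against -0.13 over all genes tested. The filter favours a lower median too, so the median of this list is a description only. Tead4, which acts above Cdx2 in the embryo, had 1 and 3 counts in the fasted libraries, against 2372 and 2412 in non-fasted ones (log2 fold change -8.23). Klf5 had 2 and 2 counts in fasted and 273 and 271 in non-fasted libraries (-5.10). Ets2 (-3.10) and Esrrb (-2.67), needed for the renewal of mouse trophoblast stem cells, were lower too, and Ets2 was also expressed in fasted livers, with 356 and 420 counts against 12837 and 12880. Id2, an inhibitor of helix-loop-helix factors, was higher in fasted livers at 1.83, but it was not called when libraries were scaled to hepatocyte markers (0.02, adjusted p = 0.549).

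Of 16 other regulators of trophoblast differentiation 14 were tested, and 11 were lower, 2 higher and 1 not called, beside the same 45.0% lower and 37.2% higher over all genes. 5 of the 11 passed the filter only through the non-fasted libraries, which favours a call of lower, so their number is no result in itself. The median log2 fold change was -2.50, and it is a description only for the same reason. The medians of both lists were the same when genes at 0 in fasted livers were placed at their bounds. The homeobox genes Msx2 and Dlx3 and the AP-1 gene Fosl1 were at 0 in both fasted libraries and at least 23.5-fold, 17.2-fold and 20.1-fold lower, against 135 and 138, 90 and 110, and 127 and 107 counts in non-fasted livers. The 2 that were higher in fasted livers, Rxra (1.66) and Cebpa (1.83), are also hepatocyte factors. Under the hepatocyte marker scaling Rxra turned to -0.16, called lower, and Cebpa to 0.02, not called. Gcm1, the factor that starts labyrinth branching, had 0 and 0 counts in fasted and 11 and 18 in non-fasted libraries and was too low to be tested.

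Among 12 partners and inhibitors of the factors, all of them tested, 6 were higher and 6 lower in fasted livers, which is near the 37.2% higher and 45.0% lower over all genes, and 2 of the 6 lower genes passed the filter only through the non-fasted libraries. Their median log2 fold change was 0.06. The binding partners of Hand1 and Ascl2 were lower, namely Tcf3 (-0.41), Tcf4 (-2.23) and Tcf12 (-1.03). Mdfi, which inhibits Ascl2, had 4 and 5 counts in the fasted libraries, against 1420 and 1360 in the non-fasted libraries (-6.30). The AP-2 coactivator Cited2 had 200 and 211 counts in fasted and 21310 and 21401 in non-fasted libraries (-4.74), and Cited1 had 0 and 0 against 4673 and 4677, at least 805-fold lower. The GATA cofactor Zfpm2 had 12 and 16 counts in fasted and only 5 and 6 in non-fasted libraries (3.26), and it stayed higher under hepatocyte marker scaling (1.47). However, Zfpm2 passed the filter only through the fasted libraries, which favours a call of higher, so this call is no result in itself. The inhibitors Id1 (1.54), Id2 (1.83), Id3 (2.39) and Id4 (1.83) were all called higher. With hepatocyte marker scaling only Id3 stayed higher (0.58), while Id1 was called lower (-0.28) and Id2 and Id4 (both 0.02) were not called. Zfpm1 was called higher at 0.53, was not called under total counts (0.02) and was lower under hepatocyte markers (-1.29).

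Of 3 target genes, the giant cell hormones Prl3d1 (0 and 0 counts in fasted, 159 and 146 in non-fasted libraries) and Prl2c2 (0 and 0 against 265 and 269) were at least 26.2-fold and 46.0-fold lower in fasted livers, and both passed the filter only through the non-fasted libraries. Bmp4, a growth factor, had 15 and 27 counts in fasted and 91 and 107 in non-fasted libraries and was not called (-0.28, adjusted p = 0.368), though it was called lower under total count scaling (-0.79) and hepatocyte marker scaling (-2.09).

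**Figure D3:**
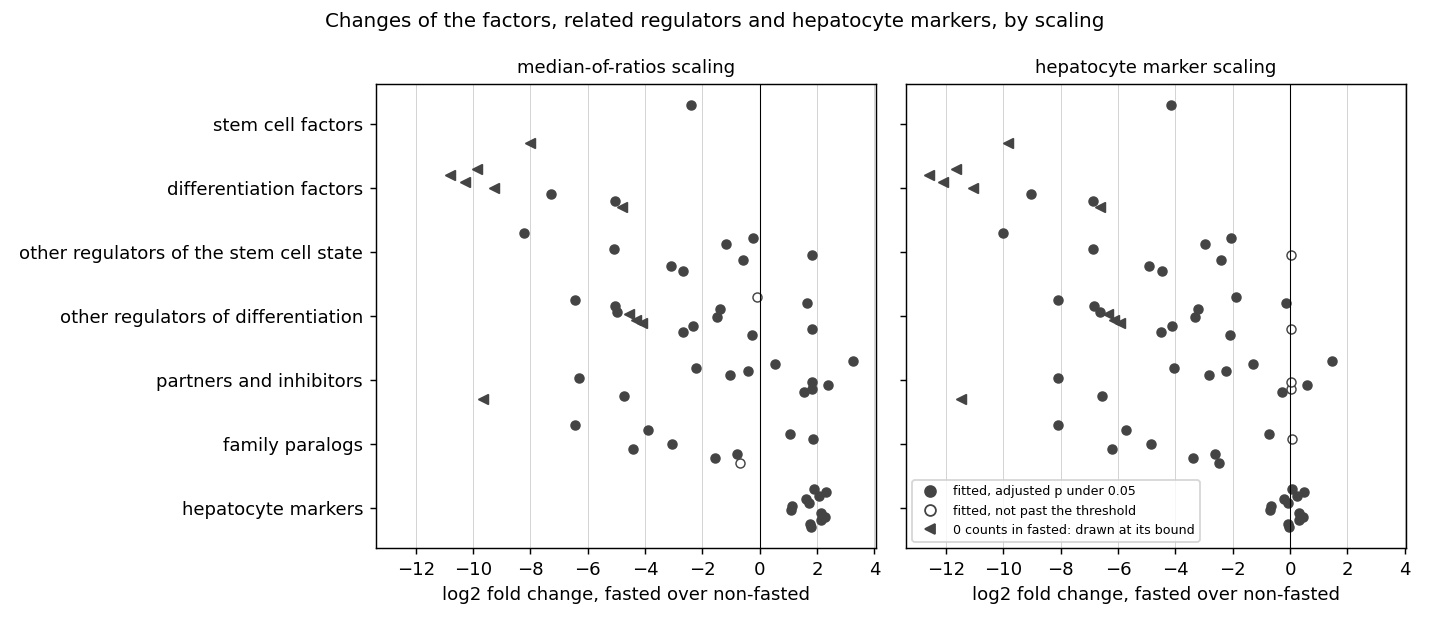
Changes of the tested genes in 7 lists as log2 of fasted over non-fasted, one point per gene, with median-of-ratios scaling (left) and with libraries scaled to the 12 hepatocyte markers (right). Filled circles passed an adjusted p of 0.05, open circles did not, and triangles are genes with 0 counts in both fasted libraries, drawn at their bound from 3 counts. All 9 tested factors lie below 0 in both panels, while hepatocyte markers lie above 0 on the left and around 0 on the right, as that scaling is built on them.

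Relatives of the factors within their own families went both ways. Of 21 relatives in the files 9 were tested, and 6 were lower, 2 higher and 1 not called, beside 45.0% lower and 37.2% higher over all genes. 2 of the 6 passed the filter only through the non-fasted libraries. Gata4, a factor of liver as well as heart, was higher in fasted livers (348 and 287 counts against 328 and 343 in the deeper non-fasted libraries, log2 fold change 1.87), and Gata6 was higher too (68 and 70 against 124 and 131, 1.07). Under hepatocyte marker scaling Gata4 was not called (0.06) and Gata6 was lower (-0.74), so the call of Gata4 and the direction of Gata6 depended on the scaling. Hand2, which acts in decidual stroma of the uterus, had 56 and 54 counts in fasted and 3233 and 3127 in non-fasted libraries (-3.90). Tfap2a had 1 and 0 counts in fasted and 188 and 188 in non-fasted libraries (-6.46), far below Tfap2c, and Tfap2b and Tfap2d were at 0 in all 4 libraries. In the ETS family Elf3 (-4.42), Elf4 (-3.05) and Elf1 (-1.58) were lower in fasted livers.

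**Figure D4:**
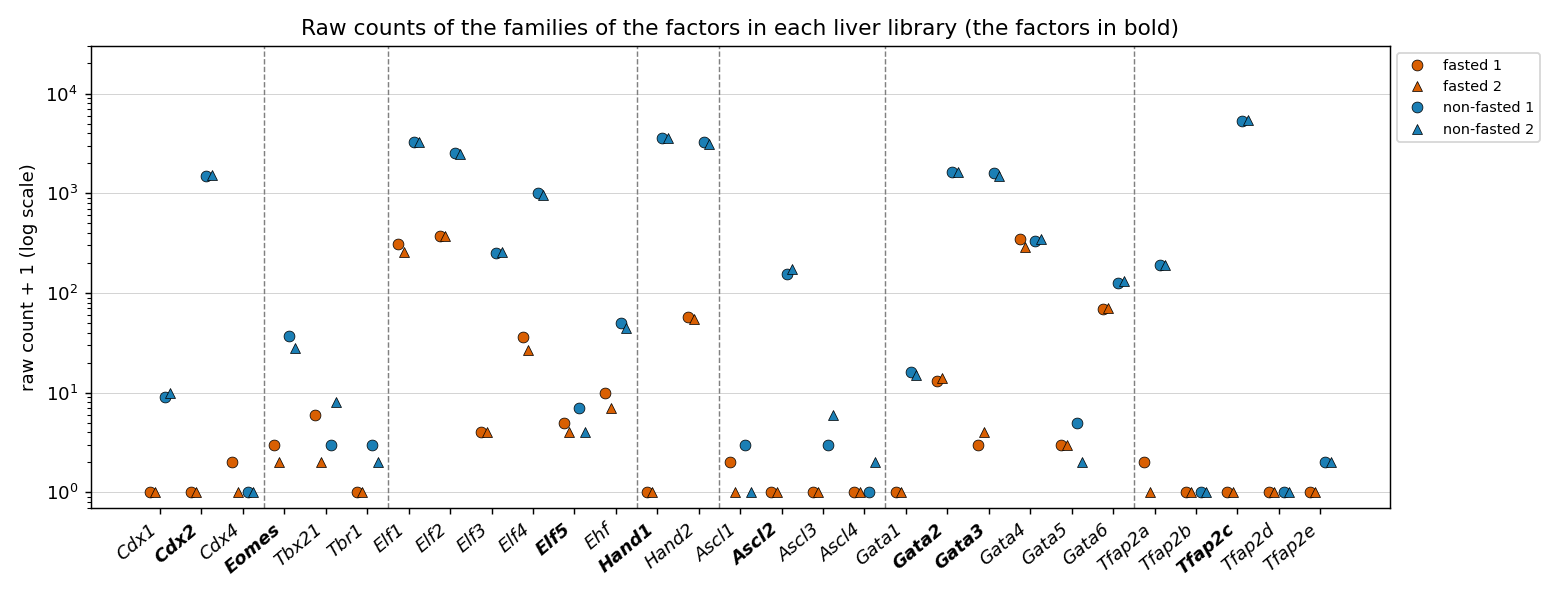
Raw counts plus 1 (log axis) of 8 factors (bold) and their family relatives in the 2 fasted libraries (orange, left) and the 2 non-fasted libraries (blue, right). Gata4 and Gata6 have counts in all 4 libraries, and among the CDX, ASCL and AP-2 genes only Cdx2, Ascl2, Tfap2a and Tfap2c exceed 10 counts in any library.

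The rest of the Rhox cluster was at 0 in the fasted libraries, where all 33 other Rhox genes in the files had 0 counts, and 13 of the 33 also had 0 in both non-fasted libraries. 3 were tested, which they could be only through the non-fasted libraries, so that all 3 were lower in fasted livers is no result in itself. Rhox5, the founding member of the cluster, had 2993 and 3164 counts in non-fasted livers (at least 530-fold lower), Rhox12 had 571 and 566 (at least 97.8-fold lower) and Rhox1 had 55 and 50 (at least 9.04-fold lower). Many Rhox genes are near-identical copies of each other, so zeros and low counts among them may depend on how shared reads were counted.

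Markers of other tissues in the uterus and placenta, which the label male liver does not describe, separated the groups as well. 6 of 7 decidual stroma markers were lower and 1, Bmp2, was higher in fasted livers, beside 45.0% lower and 37.2% higher over all genes. The 7 markers summed to 22.7 and 21.7 CPM in fasted and to 2373 and 2415 CPM in non-fasted libraries. Among them the progesterone receptor Pgr was at 0 in both fasted libraries, against 1409 and 1466 counts. 4 of the 6 lower ones passed the filter only through the non-fasted libraries. All 7 spongiotrophoblast markers and all 7 giant cell markers were lower in fasted livers. Of these, 6 spongiotrophoblast markers and all 7 giant cell markers passed the filter only through the non-fasted libraries, so their number is no result in itself. Tpbpa had 3 and 0 counts in fasted and 764320 and 770857 in non-fasted libraries. Syncytiotrophoblast markers were mixed, with Syna and Slc16a3 lower, and Gjb2 and Slc16a1, which liver also expresses, higher (1.72 and 0.14). Slc16a1 was called lower under total count scaling, and both genes were called lower under hepatocyte marker scaling, as were 90.9% of all genes. Of the erythroid markers, Hba-a1 (-2.38), Hbb-bs (-1.82) and Epor (-2.43) were lower and Klf1 (2.40) was higher in fasted livers but not called under hepatocyte marker scaling, and Gata1 had 0 and 0 counts in fasted and 15 and 14 in non-fasted libraries. All 12 hepatocyte markers were higher in fasted livers, where 37.2% of all genes were higher, and the median of the 12 was 1.83 on the log2 scale. Under the scaling built on them 6 were called higher and 6 lower. The part of each tissue in the levels of the 10 factors was not tested.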

How the data were processed

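The authors deposited raw read counts for 27179 genes by Entrez identifier in each library, without normalization. Per the submitters' processing notes, the tools were FastQC, MultiQC, Trimmomatic, STAR, featureCounts and DESeq2 1.32.0, and the build was GRCm39 (mm39). Strand setting and treatment of multi-mapping reads were not given in the sources used here. Symbols came from RefSeq (25275 identifiers matched, 1904 did not), and exon lengths from GENCODE on GRCm38.

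Counts were analysed in R 4.3.3. Genes passing the default filterByExpr filter were scaled with median-of-ratios size factors over the tested genes and tested with edgeR 4.0.16 (quasi-likelihood, two-sided, Benjamini-Hochberg adjusted p of 0.05 over 15470 genes). A standard error is the size of the log2 fold change divided by the root of F. A gene at 0 in both fasted libraries was given a bound from 3 counts over the group. Counting intervals were exact or Wilson intervals at 95%. The tests were first checked on simulated counts. That check set no gene to 0 in a group and used more spread between libraries than these data show. It therefore does not cover the factors at 0 in both fasted libraries. Alternatives were TMM, total count and hepatocyte marker scaling, no filter, a filter of 1 CPM in 2 libraries, DESeq2 1.42.0, limma-voom (limma 3.58.1), thinning to the lowest total, a replicate block and leaving out each library.

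The members and all gene lists (other stem state and differentiation regulators, partners and inhibitors, targets, family paralogs, and cell type markers) were chosen with earlier results of these data known. From each list the text names up to 4 called genes with the largest fitted change, the most abundant gene, those that go against most of the list, and every gene of a list of 5 or fewer. Other genes named were chosen after their values were seen. Libraries of a group differed by only slightly more than sampling noise (mean squared deviation per gene 1.11 in fasted and 1.13 in non-fasted libraries), and both were kept. The fit put the spread beyond counting noise at a coefficient of variation of 0.00988 over all genes. The very small p-values rest on this small spread, which could be technical. Figures were drawn with matplotlib 3.10.9.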

Additional observations from a re-analysis of the deposited data

How the results depend on the processing

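The count of factors called lower in fasted livers was 9 in the fit reported, 8 with a filter of 1 CPM in 2 libraries and 8 after thinning to the lowest total, and ranged from 8 to 9 when a library was left out. The 2 stem cell factors called lower became 1 with the filter of 1 CPM in 2 libraries and 1 after thinning, both of which drop Eomes, and ranged from 1 to 2 when a library was left out. The log2 fold change of Eomes was -2.94 without fasted replicate 1 (adjusted p = 0.0556) and -1.97 without fasted replicate 2 (adjusted p = 0.0752). All 7 differentiation factors were called lower under each alternative run on all 4 libraries, where 45.0% of all genes were called lower in the fit reported. 6 of the 7 passed the filter only through the non-fasted libraries and 5 were at 0 in both fasted libraries. These runs could hardly change such calls, so they say little about them. The log2 ratio of Elf5 was 1.59 as reported and -0.22 with hepatocyte marker scaling. The replicate block gave 9 factors called lower and 12672 genes called. Same-numbered libraries shared only a number (correlation of deviations -0.00976), and the block changed no call of a factor. The median log2 fold change of all genes was -0.13 with median of ratios, -0.63 with total counts and -1.94 with hepatocyte markers, and the genes called higher and lower were 5756 and 6965, 3551 and 9694, and 650 and 14055 under these 3 scalings. With 2 libraries a group, fitted changes of genes at 0 in fasted livers depend on the prior count, so bounds were given.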
